A study of Mus musculus with 15 samples.

Results

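DNA replication and nucleotide synthesis genes were described in RAW 264.7 cells cultured with or without RANKL. The set was a list of 41 genes that copy the genome, supply its building blocks, govern entry into S phase or rebuild chromatin behind the fork. Each gene was represented by 1 probe set, the one with the highest mean log2(signal + 32) among those annotated to that single gene symbol. On this basis 39 of the 41 genes were represented, out of 8251 genes represented in all, and Tyms and Pole were not analysed here. None of the 39 was removed by a filter on low values.

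RAW 264.7 is an established mouse macrophage-like line, and RANKL is the cytokine that turns macrophage precursors into osteoclasts, the multinucleated cells that resorb bone. All cells were grown in alpha-MEM with serum and antibiotics, and on days 0 and 3 they received serum-free alpha-MEM with RANKL (RANKL cells) or without it (control cells). Total RNA was measured on 15 Affymetrix arrays, of which 8 held control cells (1 for day 1, 2 for day 2, 2 for day 3, 2 for day 4 and 1 for day 5) and 7 held RANKL cells (1 for day 1, 2 for day 2, 2 for day 4 and 2 for day 5). RANKL cells of day 3 were not analysed here. The labels give RANKL cells as mononuclear on days 1 and 2 and as multi-nuclear from day 4, do not say whether the RNA of day 3 was taken before or after the second change of medium, and do not say whether replicate arrays came from separate cultures. The p-values therefore measure only the spread between these arrays, which may be technical.

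Before a cell divides, the origin recognition complex, Cdc6 and Cdt1 load the ring-shaped MCM helicase onto DNA, and Cdc45 helps to switch that helicase on in S phase. Polymerase alpha with primase starts each new strand, polymerase delta extends it on the sliding clamp PCNA, and Fen1 and Lig1 trim and join the fragments, while ribonucleotide reductase and the thymidine and dUTP enzymes provide the deoxynucleotides. Many of these genes are transcribed in late G1 and S phase under E2F factors, and osteoclasts formed from precursors in general leave the cell cycle, whereas RAW 264.7 cells without RANKL can go on dividing.

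E2F factors bind promoter elements built around a GC core beside a run of T, so the promoters of the genes were searched for them and those with a match are shown. The window was the 250 bases before each start site listed for a gene in RefSeq (mouse build GRCm38.p6), and a gene was counted when any of its windows held a match. The letters searched on both strands were TTTCCCGC, TTTCGCGC, TTTGCCGC and TTTGGCGC, and their matches can overlap on opposite strands. Of the 39 genes, 34 had a promoter entry, and 8 of them (23.5%) held a match, against 239 of 6576 genes on the array (3.63%) and 583 of 27025 genes in all (2.16%). More than 1 window was searched for 7 of the 34 genes (20.6%), for 19.9% of genes on the array and for 15.4% of all genes. Among the 8 matched genes, the match lay in 1 of 2 windows for Mcm7, 1 of 2 for Uhrf1 and 1 of 3 for Dnmt1, and the stretch shown comes from that window. The stretches of 80 bases that follow run 5′ to 3′ on the gene's strand, with the matched letters in capitals. They cover Mcm5 (chr8:75109331-75109410, plus strand), Mcm7 (chr5:138171994-138172073, minus), Cdc6 (chr11:98907988-98908067, plus) and Uhrf1 (chr17:56304103-56304182, plus), whose signals fell with culture time in both treatments, and Mcm6 (chr1:128359761-128359840, minus), Orc1 (chr4:108579374-108579453, plus), Pola1 (chrX:93632239-93632318, minus) and Dnmt1 (chr9:20952788-20952867, minus), which passed in none of the 4 comparisons over time.
Mcm5: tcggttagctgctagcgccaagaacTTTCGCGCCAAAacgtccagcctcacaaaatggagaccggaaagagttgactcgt
Mcm7: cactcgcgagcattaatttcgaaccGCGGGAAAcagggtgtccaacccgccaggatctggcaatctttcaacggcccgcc
Cdc6: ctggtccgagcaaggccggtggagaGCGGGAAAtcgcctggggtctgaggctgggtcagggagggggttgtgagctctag
Uhrf1: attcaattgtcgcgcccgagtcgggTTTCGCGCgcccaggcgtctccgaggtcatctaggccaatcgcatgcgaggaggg
Mcm6: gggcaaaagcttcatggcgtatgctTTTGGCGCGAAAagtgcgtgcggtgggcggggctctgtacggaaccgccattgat
Orc1: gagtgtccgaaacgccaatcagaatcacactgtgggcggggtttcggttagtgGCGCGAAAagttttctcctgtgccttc
Pola1: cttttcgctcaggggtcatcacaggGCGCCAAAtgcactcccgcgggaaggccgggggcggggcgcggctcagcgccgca
Dnmt1: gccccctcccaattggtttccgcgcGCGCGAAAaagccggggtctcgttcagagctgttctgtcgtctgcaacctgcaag

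In Mcm5 and Mcm6 the capitals hold 2 overlapping matches, 1 on each strand, and in the others 1; a further Mcm6 match lies closer to the start site, outside the stretch. TTTGCCGC matched in 0 of the 34 promoters. A match was found in 4 of the 17 promoters of genes that fell with culture time in both treatments (23.5%) and in 4 of the 12 promoters of genes that passed in none of the comparisons over time (33.3%). These shares were not tested against each other. The second group includes dim genes such as Mcm6 and Orc1 (mean signals 26.3 and 117), for which not passing does not show an unchanged level. The letters CCAAT, searched on both strands in the same window, were present in 21 of 34 promoters (61.8%), against 40.0% of genes on the array and 37.5% of all genes. With the window of highest GC content taken for each gene, the median GC content of the set was 63.0%, against 60.0% and 52.8%. These matches describe letters in a window, and no binding was measured.

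The values are MAS5 signals on a linear intensity scale, and every array has the same trimmed mean, 500. Over all probe sets the median signal of an array was 102 to 148, r between replicate arrays was 0.9751 to 0.9844, and of the 39 genes 31 had a mean signal of 300 or more, 5 lay between 100 and 300 and 3 (Mcm6, Ccne2 and Dut) lay under 100. The 3' to 5' signal ratio of beta-actin, which rises as RNA is degraded, was 1.17 to 1.39 at days 1 and 2, 1.01 to 1.16 on the control arrays of days 3 to 5, 1.18 and 1.34 at RANKL day 4, and 1.08 and 1.02 at RANKL day 5. Of 7 osteoclast markers, 4 were higher with RANKL at day 2 (Acp5, Mmp9, Ctsk and Nfatc1). At day 4 it was 3 (Acp5, Ctsk and Nfatc1) and at day 5 it was 4 (these and Mmp9). Of all probe sets 0.853%, 0.266% and 0.918% were called on these days, in either direction. The largest difference was that of Acp5, 4.98 on the log2 scale at day 2, 6.03 at day 4 and 7.15 at day 5. Tnfrsf11a (0.94), Calcr (0.33) and Itgb3 (-0.28) did not pass at day 5. The summed signal of the 7 osteoclast markers was 16997 to 32041 on RANKL arrays of days 4 and 5 and 1393 to 2019 on control arrays of days 3 to 5. The 9 macrophage markers summed to 53386 to 63714 on control arrays of days 3 to 5. On RANKL arrays of days 4 and 5 they summed to 29927 to 55806. At days 1 and 2 the sums were 47272 to 54869 (control) and 39857 to 58345 (RANKL). With RANKL 3 of 9 were lower at day 2 (C3ar1 -2.14, Itgam -1.87 and Adgre1 -1.4), 0 at day 4 and 2 at day 5 (C3ar1 -2.7 and Adgre1 -1.14). With culture time 5 of 9 rose in control cells, where 5.98% of all probe sets rose, and 3 of 9 in RANKL cells, where 8.98% rose. Of the 4 stromal, 4 T-cell and 3 B-cell markers represented, 0 passed in either comparison over culture time (limma, 0 before adjustment too), and no marker of any list was at 0 on every array. The part of the macrophage markers in the results was not tested.

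The first comparison asked how the genes changed with days in culture within each treatment. Culture time was the mean of the day 4 and day 5 group means minus that of days 1 and 2, on log2(signal + 32), a scale that understates changes of low signals, and each difference was tested with limma and adjusted over all 12422 probe sets. In control cells 20 of 39 genes fell and 0 rose, where 4.87% of all probe sets fell, and in RANKL cells 22 of 39 fell and 0 rose, where 5.82% of all probe sets fell. The median difference of the 39 genes was -0.75 in control cells (-2.14 to 0.06) and -0.79 in RANKL cells (-1.96 to 0.41), and the medians over all probe sets were -0.04 and 0.05. These are bulk samples, in which fewer cycling cells and less RNA per cell cannot be told apart.

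**Figure D1:**
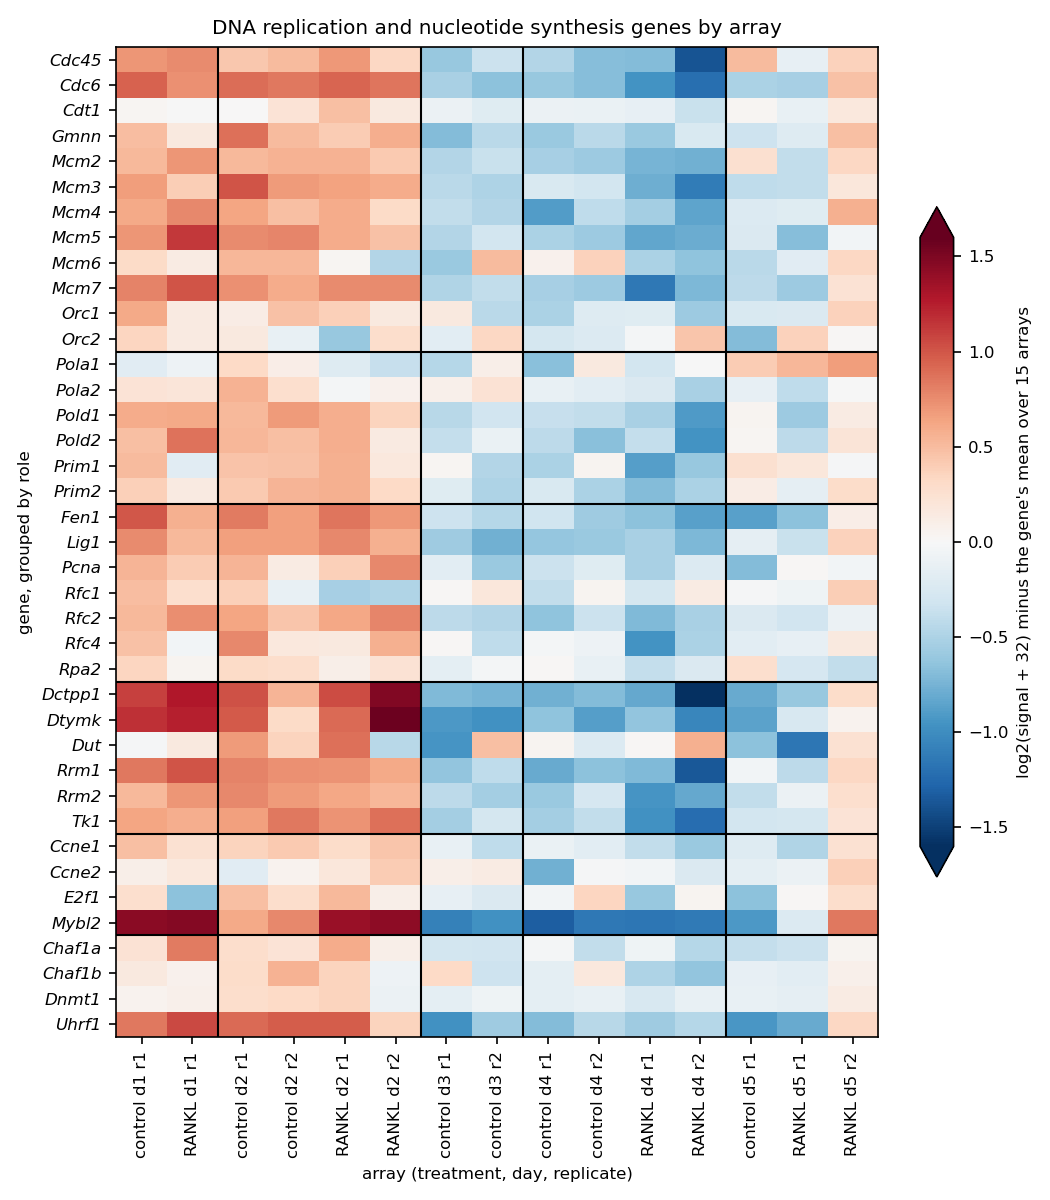
Each cell shows log2(signal + 32) of a gene on 1 array minus that gene's mean over the 15 arrays, with genes in rows grouped by role and arrays in columns by day, treatment and replicate. The 6 arrays of days 1 and 2 are mostly red and the later arrays mostly blue, except RANKL day 5 replicate 2, where 33 of 39 genes lay above their own mean.

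The 2 comparisons over culture time share no array, but both take their spread from the same fit. In both, 19 genes fell, which is 19 of the 20 called in control cells and 19 of the 22 called in RANKL cells. The share of all probe sets that fell in both was not counted, so the overlap is not read as a trait of these genes. Gmnn passed in control cells alone (-1.02 ± 0.22 on the log2 scale, SE, against -0.47 ± 0.20 with RANKL). Ccne1, Cdc45 and Chaf1a passed in RANKL cells alone, with differences of -0.62, -1.09 and -0.79 there and -0.61, -0.62 and -0.54 in control cells. None of these 4 pairs is shown to differ, since for 0 of 39 genes did the difference between treatments pass (the late minus early RANKL effect, 0.0403% of all probe sets; 0 of the genes before adjustment by limma, smallest adjusted p 0.626).

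**Figure D2:**
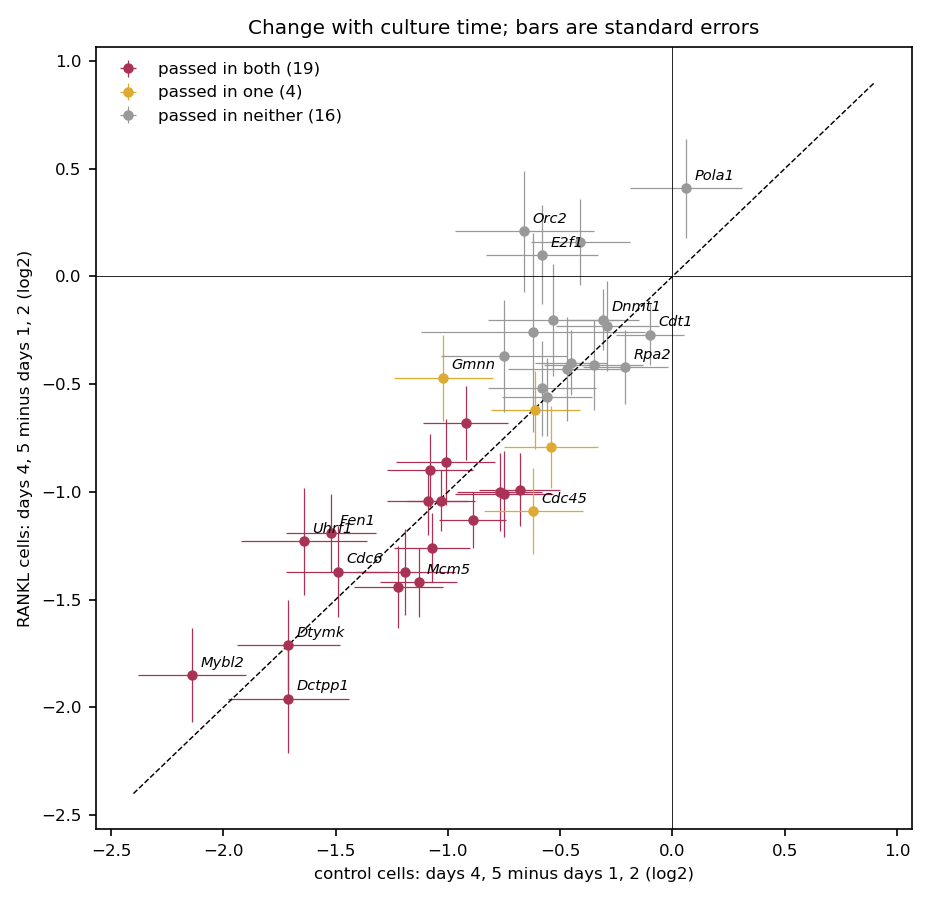
Each point is 1 of the 39 genes, placed by its log2 difference with culture time in control cells (x axis) and in RANKL cells (y axis), with standard errors as bars and equality as the dashed line. Genes that passed in both (19) lie at the lower left, led by Mybl2, Dctpp1 and Dtymk, while Pola1 lies at the upper right.

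The 6 arrays of days 1 and 2 are called early here and the 9 of days 3 to 5 later. For 18 of the 39 genes every later array lay below every early array, an order held by 3.48% of all probe sets. Without RANKL day 5 replicate 2 it was 23 of 39, against 4.63%. Within control cells the order held for 27 of 39 genes (10.0% of probe sets), and within RANKL cells for 20 of 39 (8.24%).

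Of the 12 genes that license origins and form the helicase, 7 fell in each treatment. Mcm5, a subunit of the helicase ring (100156_at), had control signals of 7096 at day 1, 7353 and 7475 at day 2, 3128 and 3512 at day 3, 3048 and 2890 at day 4 and 3673 at day 5. With RANKL its signals were 9545 at day 1, 6545 and 5992 at day 2, 2425 and 2477 at day 4 and 2699 and 4190 at day 5. No later array reached the lowest early array, and the difference was -1.13 ± 0.17 in control cells (adjusted p = 0.003) and -1.42 ± 0.16 in RANKL cells (adjusted p = 0.000528). The subunit gene Mcm7 fell to 42.9% of its early level in control cells and 36.9% in RANKL cells, and Mcm2 to 62.3% and 50.3%, percentages being taken on signal + 32. For both genes the early and late arrays did not overlap. Mcm3 and Mcm4 fell by between 0.86 and 1.09.

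Cdc6 (103821_at), the loader that brings MCM rings to origins, followed the same course. Its control signals were 1410 at day 1, 1365 and 1316 at day 2, 490 and 443 at day 3, 459 and 434 at day 4 and 496 at day 5. RANKL arrays read 1211 at day 1, 1400 and 1319 at day 2, 352 and 291 at day 4 and 485 and 1007 at day 5. All 9 later arrays were below all 6 early ones, the highest of them being RANKL day 5 replicate 2, and the differences were -1.49 ± 0.23 (control, adjusted p = 0.00313) and -1.37 ± 0.21 (RANKL, adjusted p = 0.00187). Cdc45, which joins the MCM ring to form the active helicase, read 1319, 1084 and 1148 on the early control arrays, 486 to 623 at days 3 and 4 and 1147 at day 5. The control array of day 5 thus stood among the early arrays for this gene, and in RANKL cells Cdc45 read 1015 to 1367 early, 481 and 287 at day 4, and 724 and 1041 at day 5.

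Cdt1 (94024_at), the other MCM loader, changed less and was not called with culture time. Its control signals were 3342 at day 1, 3291 and 3843 at day 2, 3074 and 2878 at day 3, 3076 and 3043 at day 4 and 3355 at day 5, and its RANKL signals were 3283, then 4608 and 3676, then 3002 and 2552, then 3031 and 3688. Early and late arrays overlapped, and the differences of -0.10 ± 0.15 (control) and -0.27 ± 0.14 (RANKL) did not pass. From RANKL day 2 to day 4 Cdt1 gave -0.57, which did not pass either. The r of Cdt1 with the median of the other genes, over the 15 arrays, was 0.78. Geminin (Gmnn), the inhibitor of Cdt1, read 599 to 791 on the early control arrays and 245 to 323 on the 5 later ones, with no overlap. The origin recognition genes were dim: Orc1 had a difference of -0.75 ± 0.28 in control cells and -0.37 ± 0.26 in RANKL cells, Orc2 of -0.66 ± 0.31 and 0.21 ± 0.28, and neither passed. Mcm6, whose probe set had a mean signal of 26.3, gave -0.53 ± 0.29 and -0.20 ± 0.26 and cannot be set beside the other subunits.

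**Figure D3:**
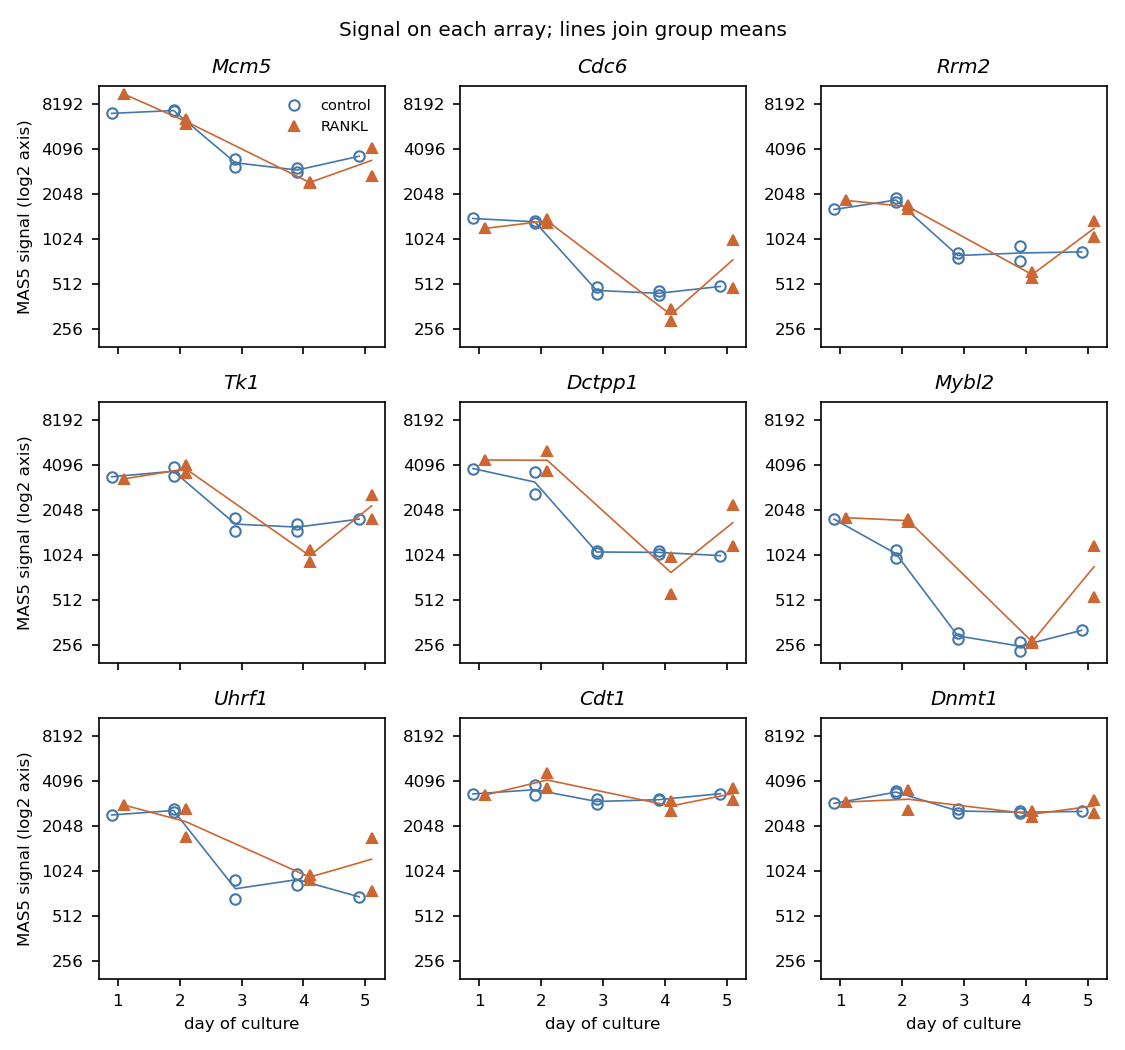
MAS5 signal (log2 axis) against day of culture for 9 genes, with control arrays as open circles, RANKL arrays as triangles and lines through the group means; no RANKL array of day 3 is plotted. In 7 panels the later arrays sit lower, with RANKL day 5 replicate 2 the highest RANKL array after day 2, while Cdt1 and Dnmt1 stay within 2552 to 4608 and 2328 to 3562.

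Among polymerase and primase genes 2 of 6 fell in each treatment, both of them polymerase delta subunits. Pold1, the catalytic subunit, read 1994 to 2223 on the early control arrays and 1006 to 1428 on the later ones, and 1778 to 2109 early and 724 to 1512 late with RANKL. Neither treatment showed overlap for Pold1, and its fall left 58.8% of the early level in control cells (adjusted p = 0.0284). Pold2 fell to 59.3% in control cells (adjusted p = 0.05, below the threshold before rounding) and 49.8% in RANKL cells. Pola1, the catalytic subunit of polymerase alpha, read 261, 382 and 327 on the early control arrays and 177 to 407 on the later ones, and 225 to 283 early and 239 to 496 late with RANKL. Its arrays overlapped, and the differences were 0.06 ± 0.25 and 0.41 ± 0.23, neither of which passed. The primase gene Prim1 gave -0.47 ± 0.26 and -0.43 ± 0.24, and Pola2 and Prim2 gave between -0.56 and -0.40, none past the threshold.

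Of the clamp, loader and strand-joining genes, 4 of 7 fell in each treatment. Fen1 (97327_at), the nuclease that trims Okazaki fragments, read 2503, 2236 and 1989 on the early control arrays, 983 and 902 at day 3, 997 and 830 at day 4 and 670 at day 5. In RANKL cells Fen1 read 1869, 2285 and 2038 early, 782 and 669 at day 4 and 777 and 1346 at day 5. Every later array lay below every early one, with differences of -1.52 ± 0.20 (adjusted p = 0.00146) and -1.19 ± 0.18 (adjusted p = 0.00182). DNA ligase Lig1 fell to 47.2% and 53.5% of its early level, again with no overlap. Pcna, the sliding clamp, read 4867 to 7643 early and 2746 to 4512 late over both treatments, and fell to 52.9% in control cells and 62.2% in RANKL cells. The clamp loader subunit gene Rfc2 fell to 54.0% and 45.6%, whereas Rfc4 (-0.58 ± 0.24 and -0.52 ± 0.22), Rfc1 (-0.41 and 0.16) and the single-strand binding gene Rpa2 (-0.21 and -0.42) did not pass.

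Of the nucleotide supply genes 5 of 6 were lower in each treatment, where 4.87% (control) and 5.82% (RANKL) of all probe sets fell. This was the highest share among the 6 roles. The roles hold 4 to 12 genes, differ in signal, which went with the calls, and were not tested against each other. Rrm2 (102001_at), the S-phase subunit of ribonucleotide reductase, read 1619 at control day 1, 1933 and 1813 at day 2, 833 and 763 at day 3, 733 and 925 at day 4 and 844 at day 5. Its RANKL signals were 1860 at day 1, 1745 and 1632 at day 2, 567 and 623 at day 4 and 1055 and 1365 at day 5. The 9 later arrays were all below the 6 early ones, and the gene fell by 1.03 in control cells and by 1.04 in RANKL cells (SE 0.15 and 0.14, adjusted p = 0.0025 and 0.00108). Rrm1, the large subunit, fell to 43.8% and 38.6% of its early level.

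Dctpp1 (96293_at), a pyrophosphatase that removes excess dCTP, had the largest fall with culture time in RANKL cells. Control arrays read 3873 at day 1, 3657 and 2638 at day 2, 1089 and 1059 at day 3, 1041 and 1093 at day 4 and 1016 at day 5, and RANKL arrays 4415, then 3747 and 5056, then 1001 and 566, then 1170 and 2200. No later array reached an early one, and the differences were -1.71 ± 0.27 (control, adjusted p = 0.00359) and -1.96 ± 0.25 (RANKL, adjusted p = 0.000847). Dtymk, which phosphorylates dTMP, fell to 30.5% and 30.6% of its early level. Thymidine kinase Tk1 (96081_at) fell to 47.5% and 41.9%, with 3307 to 4070 on early arrays and 920 to 2566 on later ones. Dut, which hydrolyses dUTP, was dim (mean signal 81.8) and spread widely, with differences of -0.62 ± 0.50 and -0.26 ± 0.46 that did not pass.

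Genes that control entry into S phase moved unevenly. Mybl2 (100023_at), a transcription factor of proliferating cells and itself an E2F target, had the largest fall in control cells. Its control signals were 1779 at day 1, 984 and 1108 at day 2, 283 and 308 at day 3, 236 and 269 at day 4 and 322 at day 5, and with RANKL they were 1819, then 1704 and 1775, then 267 and 273, then 541 and 1172. RANKL day 5 replicate 2 lay above both control arrays of day 2, and every other later array lay below all early ones. The differences were -2.14 ± 0.24 (adjusted p = 0.00082) and -1.85 ± 0.22 (adjusted p = 0.000646), leaving 22.7% and 27.7% of the early level. Cyclin E1 (Ccne1) fell to 65.2% in RANKL cells and stood at 65.7% in control cells without passing (adjusted p = 0.0742). The difference for E2f1 was -0.58 ± 0.25 and 0.10 ± 0.23, and for cyclin E2 (Ccne2) -0.29 ± 0.23 and -0.23 ± 0.21, on mean signals of 208.4 and 29.5; neither gene passed.

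Among chromatin and DNA methylation genes, Uhrf1 and Dnmt1, whose products act together in copying methylation to new strands, were not called alike. Uhrf1 (99564_at) read 2418, 2534 and 2647 on the early control arrays and 666 to 974 on the later ones, and 2818, 2638 and 1722 on early RANKL arrays, 894 and 966 at day 4 and 752 and 1697 at day 5. All later arrays were below all early ones, though RANKL day 5 replicate 2 and RANKL day 2 replicate 2 nearly met, and the differences were -1.64 ± 0.28 (adjusted p = 0.00464) and -1.23 ± 0.25 (adjusted p = 0.00797). Dnmt1 (101445_at) read 2602 to 3562 early and 2328 to 3051 late over both treatments, with differences of -0.31 ± 0.16 and -0.20 ± 0.14 that did not pass. Its control arrays did not overlap, with 2888 to 3483 early and 2488 to 2656 later, while its RANKL arrays did. The r of Dnmt1 with the median of the other genes was 0.84, so it moved with them by a smaller amount. Chaf1a, the large subunit of the histone chaperone CAF-1, fell by 0.79 in RANKL cells, and Chaf1b gave -0.35 and -0.41 without passing.

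Low signal went with fewer calls. Of the 31 genes with a mean signal of 300 or more, 20 fell with culture time in control cells and 22 in RANKL cells, with medians of -0.92 and -1.0. Of the 8 dimmer genes 0 passed in either treatment (2 and 1 at an unadjusted p under 0.05 by limma), with medians of -0.55 and -0.25. The beta-actin ratio was also lower on the later control arrays than on the early arrays. With that ratio as a covariate 13 genes passed in control cells and 20 in RANKL cells, and the medians were -1.02 and -1.03.

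In control cells 19 of the 39 genes fell from day 2 to day 3 and none passed from day 3 to day 4; the difference between these steps was not tested. From day 2 to day 3, 0 of 39 rose, and 19 fell, where 2.99% of all probe sets fell, with a median of -0.82 (-1.72 to 0.17) against 0.01 over all probe sets. Mybl2 (-1.72 ± 0.27), Uhrf1 (-1.71 ± 0.32), Dtymk (-1.59 ± 0.27), Dctpp1 (-1.50 ± 0.31), Cdc6 (-1.46 ± 0.26), Lig1 (-1.33 ± 0.22), Mcm3 (-1.30 ± 0.21) and Rrm1 (-1.28 ± 0.26) fell furthest. Over the same step 4 of 9 macrophage markers rose, where 4.09% of all probe sets rose: Itgam (2.89), C3ar1 (1.47), Adgre1 (1.32) and Ptprc (1.10). Of the 7 osteoclast markers, Mmp9 (3.21) and Itgb3 (1.05) rose and Nfatc1 fell by 1.42. The part of either marker list in the falls was not tested. From day 3 to day 4 the control median was -0.03 (-0.50 to 0.33) and 0 of 39 genes passed (0.0% of all probe sets; 0 of 39 with a limma p under 0.05 before adjustment, and a smallest adjusted p of 0.999). From day 4 to day 5, a comparison added after the values were seen, 0 of 39 passed (0.0403% of all probe sets; 4 with a limma p under 0.05 before adjustment, smallest adjusted p 0.222), with the largest differences for Cdc45 (1.08 ± 0.31) and Mcm2 (0.81 ± 0.26) on the 1 control array of day 5. The 19 calls depend on single arrays: 0 passed without control day 2 replicate 1 or without control day 3 replicate 2, 9 without control day 2 replicate 2 and 7 without control day 3 replicate 1, while the median stayed between -0.96 and -0.82.

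In RANKL cells, 25 of 39 genes fell from day 2 to day 4 and 0 rose, where 5.45% of all probe sets fell, with a median of -1.10 (-2.55 to 0.43) against -0.03. This comparison shares no array with the control comparison of days 2 and 3, but both take their spread from the same fit. All 19 genes called in that control comparison were among the 25 called here, and the other 6 were Prim1, Prim2, Pold2, Rfc4, Pcna and Ccne1. The share of all probe sets called lower in both was not counted, so this overlap is not read as a trait of these genes. The furthest falls were those of Mybl2 (-2.55 ± 0.27, to 17.1% of the day 2 level), Dctpp1 (-2.48 ± 0.31), Dtymk (-2.08 ± 0.27), Cdc6 (-1.98 ± 0.26), Tk1 (-1.90 ± 0.20), Rrm1 (-1.70 ± 0.26), Mcm7 (-1.68 ± 0.24) and Mcm3 (-1.57 ± 0.21). Over this step 4 of 9 macrophage markers rose, where 7.08% of all probe sets rose: Itgam (3.49), Adgre1 (2.47), C3ar1 (2.44) and Ptprc (2.08), and all 9 differences were positive. Of the 7 osteoclast markers, Mmp9 (2.50) and Ctsk (1.38) rose. The part of either marker list in the result was not tested. By role, 8 of 12 licensing genes, 4 of 6 polymerase and primase genes, 5 of 7 clamp and joining genes, 5 of 6 nucleotide genes, 2 of 4 control genes and 1 of 4 chromatin genes fell. Over both treatments 13 genes passed in none of the 4 comparisons over time: Orc1, Orc2, Cdt1, Mcm6, Pola1, Pola2, Rfc1, Rpa2, Dut, E2f1, Ccne2, Chaf1b and Dnmt1.

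From day 4 to day 5 a transcription factor and a pair of nucleotide enzymes rose in RANKL cells. Mybl2 rose from 267 and 273 to 541 and 1172 (1.46 ± 0.27), Tk1 from 1108 and 920 to 1797 and 2566 (1.07 ± 0.20), and Rrm2 from 567 and 623 to 1055 and 1365 (0.98 ± 0.18), each with an adjusted p of 0.0435 by limma. These 3 of 39 were the calls, where 0.225% of all probe sets rose, and both day 5 arrays of each lay above both day 4 arrays. The median over the 39 genes was 0.55, with 36 positive, against 0.05 over all probe sets, of which 56.7% were positive, and 24 of 39 had both day 5 arrays above both day 4 arrays, against 23.9% of all probe sets. The differences for Cdc45 (1.15 ± 0.25, adjusted p = 0.0792) and Cdc6 (1.06 ± 0.26, adjusted p = 0.12) did not pass. Macrophage markers moved the other way, with 9 of 9 differences negative and a median of -0.86, and 1 of 9 passed, where 0.411% of all probe sets fell: Adgre1 (-2.04 ± 0.18, adjusted p = 0.00152). Of the 7 osteoclast markers 0 passed (limma, 1 before adjustment). The part of the markers in the rise was not tested.

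The RANKL arrays of day 5 stood apart from each other. In replicate 2, 35 of the 39 genes were higher than in replicate 1, with a median gap of 0.51 on the log2 scale, where 51.4% of all probe sets were higher; in the other 5 groups with replicates 14 to 21 genes were higher in replicate 2, with median gaps of -0.14 to 0.04. The median level of the genes, each taken relative to its own mean, was -0.26 in replicate 1 and 0.24 in replicate 2. Without replicate 1 the median difference from day 4 to day 5 was 0.85. Without replicate 2 it was 0.31, and the calls of that step were lost. The calls were also lost with other arrays left out: the count was 0 for 11 of the 15 arrays left out in turn, among them all arrays of days 2 and 4 in both treatments, both control arrays of day 3 and RANKL day 5 replicate 2. It was also 0 with the beta-actin ratio as a covariate and 0 with no intensity trend.

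**Figure D4:**
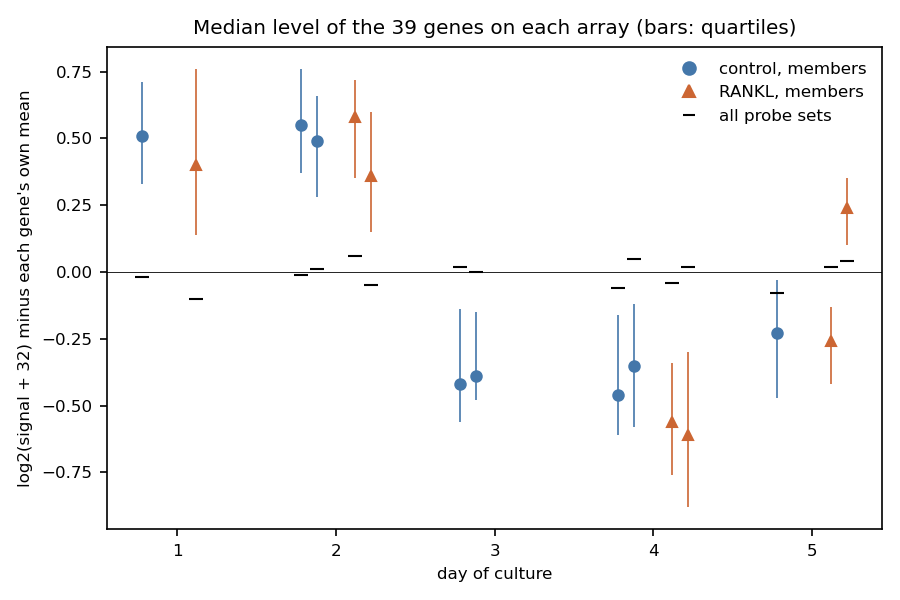
Median over the 39 genes of log2(signal + 32) minus each gene's own mean, by day, for control (circles) and RANKL (triangles) arrays, with quartiles as bars and the same median over all probe sets as black dashes. The arrays of days 1 and 2 lie at 0.36 to 0.58, control days 3 to 5 at -0.46 to -0.23, RANKL day 4 at -0.56 and -0.61, and RANKL day 5 at -0.26 and 0.24.

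The next comparison set RANKL cells against control cells of the same day. None of the 39 genes passed on any day: 0 at day 1 (0.0% of all probe sets called), 0 at day 2 (0.853%), 0 at day 4 (0.266%) and 0 at day 5 (0.918%), nor in the mean effect over the 4 days (1.09%). With no adjustment, limma put 1, 4, 5 and 6 of 39 under a p of 0.05 at days 1, 2, 4 and 5 and 2 of 39 over the days. The smallest adjusted p values were 0.847, 0.384, 0.34, 0.118 and 0.196. The median differences were -0.02, -0.09, -0.23 and 0.21, against -0.06, 0.01, -0.02 and 0.11 over all probe sets. The day 1 comparison rests on 1 array against 1, and that of day 5 on 2 RANKL arrays against 1 control array.

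At day 4 the differences were negative in 31 of 39 genes, against 52.8% of all probe sets, and among genes with a mean signal of 300 or more the largest at an unadjusted p under 0.05 were those of Mcm3 (-0.68 ± 0.21), Rfc4 (-0.67 ± 0.27) and Tk1 (-0.62 ± 0.20). Tk1 read 1108 and 920 with RANKL against 1492 and 1657 without it, and Mcm3 1470 and 1158 against 2152 and 2082. Both RANKL arrays lay below both control arrays for 20 of 39 genes, against 19.8% of all probe sets. The 95% intervals were -1.06 to -0.19 for Tk1, -1.14 to -0.23 for Mcm3 and -0.54 to 0.75 for Pola1.

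At day 5, 28 of 39 differences were positive (71.8%), where 62.5% of all probe sets were positive. Mybl2 read 541 and 1172 with RANKL against 322 without it, a difference of 1.23 ± 0.34 (95% interval 0.49 to 1.97, adjusted p = 0.118). Both RANKL arrays were above the control array for 19 of 39 genes, against 49.2% of all probe sets. Cdc45 went the other way, with 724 and 1041 against 1147 (-0.39 ± 0.31). Without RANKL day 5 replicate 1 the median at day 5 was 0.52, and without replicate 2 it was -0.03.

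Mybl2 also had the largest positive difference at day 2, with 1704 and 1775 with RANKL against 984 and 1108 without it (0.72 ± 0.27, 95% interval 0.12 to 1.32, adjusted p = 0.384), and over the 4 days (0.52 ± 0.16, adjusted p = 0.196). Its day 2 arrays did not overlap between treatments, while its day 4 signals of 267 and 273 with RANKL lay beside 236 and 269 without it. The effect of RANKL was also compared between days, in contrasts added after the values were seen. None of the 39 genes passed for day 4 minus day 2, day 5 minus day 2 or day 5 minus day 4 (0.00805% of all probe sets in each), with smallest adjusted p of 0.623, 0.636 and 0.396. Before adjustment 1, 2 and 9 of 39 had a limma p under 0.05, and the medians were -0.20, 0.28 and 0.34.

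**Figure D5:**
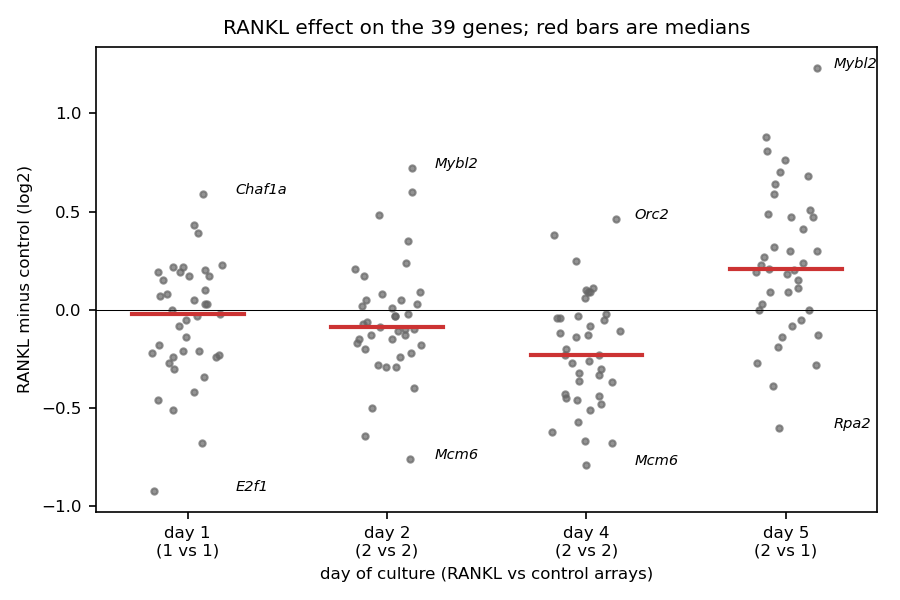
RANKL minus control (log2) at days 1, 2, 4 and 5, with 1 point for each of the 39 genes, the median as a red bar and the genes at each end named. The medians are -0.02, -0.09, -0.23 and 0.21, and no point passed the test on its day.

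The genes followed each other closely across arrays. Over the 15 arrays, 25 of 39 correlated above 0.8 with the median of the other 38 genes, against 3.98% of the remaining probe sets correlated with the median of all 39, and the points share the day of culture and the array. Cdc6 (r = 0.99), Lig1 (0.98), Rrm1 (0.97) and Rrm2 (0.97) were nearest to the common course. The correlation was under 0.5 for 7 genes: Orc2 (0.00), Pola1 (0.13), Rfc1 (0.16), Dut (0.34), E2f1 (0.44), Ccne2 (0.48) and Mcm6 (0.49). Of these, Dut, Ccne2 and Mcm6 had mean signals of 81.8, 29.5 and 26.3, Orc2 101.6 and E2f1 208.4. For such dim genes a low r does not show a separate course. Pola1 and Rfc1 had mean signals of 311.8 and 481.0.

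A further probe set was on the array for 15 of the 39 genes. Its difference had the same sign as that of the chosen one for 12 of 15 with culture time in control cells and for 9 of 15 in RANKL cells. Among called genes, those of Mcm5 (0.11), Rrm1 (0.38), Pold1 (0.46) and Lig1 (0.09) were positive in RANKL cells, without passing. The further probe set of Mybl2 (mean signal 139.5) gave -0.49 in control cells and -0.25 in RANKL cells, and that of Tk1 (mean signal 57.9) -0.04 and -1.0, none past the threshold. From control day 2 to day 3 the further probe sets of Mcm3 (-1.25 ± 0.21), Dctpp1 (-1.51 ± 0.24) and Dtymk (-1.14 ± 0.27) also passed, beside chosen values of -1.30, -1.50 and -1.59. Over this step the sign was the same for 9 of 15 and opposite for 6 of 15, none of the 6 past the threshold. The 6 were Mcm5 (0.77, mean signal 57.3), Rrm1 (0.30, mean signal 11.3) and E2f1 (0.37, mean signal 194.3), with Pola2 (0.63, mean signal 187.2), Orc2 (-0.49, mean signal 27.0) and Dnmt1 (0.68, mean signal 24.9). The further probe set of Cdt1, with a mean signal of 1208, gave -0.06, beside -0.26 for the chosen one.

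Other replication factors, a list of 41 genes outside the set of which 31 were represented, went the same way in part. With culture time 8 of 31 fell and 0 rose in control cells (4.87% of all probe sets fell), and 10 fell and 1 rose in RANKL cells (5.82% fell), with medians of -0.37 and -0.19. Rfc5, a clamp loader subunit, fell by 1.21 and 1.58, Tipin, which protects stalled forks, by 1.54 and 1.11, Mcm10, which helps to start the fork, by 1.11 and 1.08, and Asf1b, a histone chaperone, by 0.81 and 1.35. Msh6, a mismatch repair gene, rose by 0.96 in RANKL cells, so that 1 of 31 rose where 8.98% of all probe sets did. From RANKL day 4 to day 5, 0 of 31 passed (limma, 13 at an unadjusted p under 0.05), with a median of 0.43.

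Of 28 further nucleotide synthesis enzymes, from a list of 37, 6 fell and 2 rose with culture time in control cells, and 8 fell and 2 rose in RANKL cells. Of all probe sets 4.87% fell in control cells and 5.82% in RANKL cells. Gart, a purine synthesis enzyme, fell by 1.39 in control cells and 1.12 in RANKL cells, Shmt1, which supplies one-carbon units, by 1.05 and 1.01, Nme1, a nucleoside diphosphate kinase, by 0.99 and 0.86, and Cad, which starts pyrimidine synthesis, by 0.97 and 0.77. The 2 that rose were the same in both treatments, Tk2 (0.88 ± 0.22 and 0.82 ± 0.20) and Dguok (0.75 ± 0.13 and 0.48 ± 0.12), which encode the mitochondrial deoxynucleoside kinases. These 2 of 28 stand beside 5.98% of all probe sets that rose in control cells and 8.98% in RANKL cells, so the share of risers is no result about these enzymes. Dguok lies outside the rule for naming genes and was named after its values were seen. From RANKL day 2 to day 4, 3 of the 28 rose and 5 fell, where 7.08% of all probe sets rose and 5.45% fell. Rrm2b, the p53-induced partner of Rrm1, was among those that rose (1.56 ± 0.42). Rrm2 fell by 1.46 over the same step, and a link between the 2 changes was not tested. From RANKL day 4 to day 5 Shmt1 (1.16 ± 0.20) and Prps1 (0.84 ± 0.15) rose, which is 2 of 28, where 0.225% of all probe sets rose.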

How the data were processed

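The deposited values are MAS5 probe set signals, a linear intensity scale, per the submitters' processing notes, and their 2% trimmed mean was 500 on each array. The genome build and settings are not given in the sources used here. Of 12488 probe sets, 66 controls were left out and 12422 tested: 10833 were annotated to 1 gene, 396 to several and 1193 to none. Limma 3.58.1 in R 4.3.3 fitted 1 mean for each of 9 groups to log2(signal + 32) on 15 arrays (lmFit, contrasts.fit, eBayes with an intensity trend), with 6 residual and 5.39 prior degrees of freedom. A group of 1 array was taken to have the spread of the rest. Every test was two-sided, with Benjamini-Hochberg adjustment over all tested probe sets within a comparison and a threshold of 0.05. Precision was limited by the number of arrays. The fit was tested on simulated data for the RANKL effect at day 4 alone, and the other comparisons and steps were not.

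The genes and lists were chosen with earlier results of these data known. Named with values were, for each comparison, up to 8 genes past the threshold by size, a panel of genes for each step of replication (Tyms, in the panel, was not represented), and up to 4 genes of each further list. Markers of osteoclasts, macrophages and stromal, T and B cells were also read.

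Alternatives were quantile normalization, a pseudocount of 1 or of 100, no intensity trend, testing the brighter 50% of probe sets alone, a replicate block, the beta-actin ratio as a covariate, the mean over a gene's probe sets, other days in the means and each array left out in turn. An array that was the only one of its group was not left out of the comparisons that use that group. Promoters came from RefSeq.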

Additional observations from a re-analysis of the deposited data

How the results depend on the processing

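No difference of the set or of a named gene changed sign as a called value. With the beta-actin ratio as a covariate the median with culture time was -1.03 in RANKL cells and -1.02 in control cells, the control count was 13 (20 in the reported fit), the median from control day 2 to day 3 was -1.13, and 0 genes rose from RANKL day 4 to day 5. With the mean over a gene's probe sets the RANKL culture time median was -0.56 and 1 gene rose from RANKL day 4 to day 5. That last count was 0 with no intensity trend and, with the replicate number as a block, 1. Replicate numbers did not pair the arrays (correlations of replicate differences from -0.169 to 0.119 over 15 pairs of groups), and with the block 21 genes fell with culture time in RANKL cells, 19 in control cells, 17 from control day 2 to day 3 and 25 from RANKL day 2 to day 4.

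With single arrays left out, the count ran from 20 to 25 for culture time in RANKL cells, from 16 to 21 in control cells, from 0 to 21 from control day 2 to day 3, from 18 to 25 from RANKL day 2 to day 4 and from 0 to 12 from RANKL day 4 to day 5, where the median ran from 0.31 to 0.85. The RANKL effect gave 0 to 1 calls at day 5 (median -0.03 to 0.52) and 0 to 1 over the days, the 1 in both without RANKL day 5 replicate 1. The median ran from -0.14 to 0.04 for the RANKL effect at day 2, from -0.24 to -0.12 at day 4, from -0.12 to 0.03 over the days and from -0.07 to 0.15 for late minus early. It ran from -0.92 to -0.69 for culture time in RANKL cells, from -0.75 to -0.69 in control cells, from -0.96 to -0.82 from control day 2 to day 3, from -0.07 to 0.01 from control day 3 to day 4 and from -1.23 to -0.98 from RANKL day 2 to day 4. A group left with 1 array was assumed to vary like the others. Shares of all probe sets were not counted with arrays left out, so these counts show only how far the calls depend on single arrays. No comparison was fitted without the only array of one of its groups. For culture time 14 arrays were left out in turn in RANKL cells (not day 1) and 13 in control cells (not days 1 and 5). How far these calls depend on those lone arrays is thus not shown by leaving arrays out. Calls kept in every alternative were 15 of 22 (culture time, RANKL), 8 of 20 (culture time, control), 0 of 19 (control day 2 to day 3), 12 of 25 (RANKL day 2 to day 4) and 0 of 3 (RANKL day 4 to day 5). The cause of these shifts was not tested.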

Other observations

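Cell cycle genes beside replication also changed with days in culture. Of 29 mitosis genes represented, 15 fell and 0 rose from control day 2 to day 3, and 15 fell and 0 rose from RANKL day 2 to day 4, with medians of -0.94 and -0.99, where 2.99% and 5.45% of all probe sets fell. Aurka, a spindle kinase, fell by 1.72 and 2.17, Birc5 (survivin) by 1.73 and 2.01, and Kif2c, a kinesin of the centromere, by 1.73 and 2.04. From RANKL day 4 to day 5, Cdc20, an activator of the anaphase-promoting complex (1.34 ± 0.17), Cdk1, the mitotic kinase (1.26 ± 0.23), and Aurka (1.06 ± 0.21) rose, where 0.225% of all probe sets rose, and 28 of 29 differences were positive, against 56.7% of all probe sets.

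Of 24 genes that control the step from G1 to S phase, 4 fell and 3 rose with culture time in control cells, and 5 fell and 3 rose in RANKL cells. Of all probe sets 4.87% fell and 5.98% rose in control cells, and 5.82% fell and 8.98% rose in RANKL cells. Rb1, which restrains E2F, rose by 1.26 ± 0.33 and 1.15 ± 0.30, and Tfdp1, the partner of E2F proteins, fell by 0.85 and 1.02. E2f8, a repressor among E2F factors, fell by 1.12 in control cells. The kinase partner gene Cks1b fell by 0.91 and the inhibitor gene Cdkn1b (p27) rose by 0.77 ± 0.21 in RANKL cells. None of these changes is shown to differ between treatments. The late minus early RANKL effect passed for 0 of the 24 genes (0.0403% of all probe sets, limma, smallest adjusted p 0.347, 4 before adjustment). Myc fell with culture time in control cells (-2.19 ± 0.46, limma adjusted p = 0.0117) and gave -0.30 ± 0.42 in RANKL cells, which did not pass; the late minus early RANKL effect for Myc was 1.89 ± 0.62 and did not pass (adjusted p = 0.528), and its RANKL effect over the 4 days was 1.67 ± 0.31 (adjusted p = 0.0255).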
